A study of Mus musculus with 9 samples.

Results

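The genes described are 10 regulators of apoptosis, out of 24421 genes counted. They comprise 8 genes of the BCL2 family and 2 death receptor genes. They were listed by name and not by a cut-off on measured values, but with earlier results of these data known. By role they are 3 prosurvival guardians (Mcl1, Bcl2l1 and Bcl2), 4 BH3-only activators or sensitizers (Bcl2l11, Bid, Bbc3 and Pmaip1), the effector Bax and 2 death receptors (Tnfrsf10b and Fas). RNA was measured in the 4T1 line of mouse mammary carcinoma cells, which lack oestrogen receptor, progesterone receptor and HER2 and spread to the lung when grafted. The cells were grown for 5 days as spheroids on soft agar (3D) without added palmitate, as spheroids with 75 µM palmitate, or as monolayers (2D) with 75 µM palmitate, with 3 libraries in each condition. Palmitate was given bound to albumin on top of the fatty acids of the serum in the medium, and cultures without it received vehicle. All libraries thus come from 1 cell line in culture, with no host cells, and 2D cultures without added palmitate were not analysed here. The comparison of 3D with 2D cultures, both with palmitate, addresses the growth format, and the comparison of 3D cultures with and without palmitate addresses the fatty acid.

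Proteins of the BCL2 family decide whether the outer mitochondrial membrane is permeabilised. Guardians such as MCL1, BCL-XL and BCL2 hold back the effectors BAX and BAK, and BH3-only proteins, made or activated under stress, bind the guardians or the effectors and release the block, after which cytochrome c leaves the mitochondrion and caspases are activated. Death receptors start the same end from the cell surface through FADD and caspase-8, and BID, once cut by caspase-8, carries the signal to mitochondria. In epithelial cells that lose their matrix, BIM, the product of Bcl2l11, is a known mediator of the cell death called anoikis. Many of these proteins are controlled by cleavage, phosphorylation or rapid turnover, so an mRNA level is not a measure of their activity.

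Total counts per library lay between 6595514 and 31177756. The smallest library was replicate 3 of the 3D cultures with palmitate, and several values below lean on it. Levels are given as CPM, the counts of a gene per 1000000 counts of its library, after TMM scaling of the libraries by edgeR. Of the 10 genes, 9 had enough counts to be tested among 12575 genes, and Pmaip1 did not. The label of the cells was checked against 5 epithelial markers, which summed to 3100 to 4500 CPM in every library. Leukocyte markers summed to at most 1.14 CPM and endothelial markers to at most 0.579 CPM. The summed fibroblast markers were 33.2 to 34.6 CPM in 2D and 91.6 to 111 CPM in 3D cultures. That sum came nearly all from Pdgfra, while Dcn had at most 1 count and Lum none in any library. Its part in the results was not tested. In bulk RNA, a lower level in each cell and fewer cells with the transcript cannot be told apart.

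In 3D cultures with palmitate the gene with the largest change was Bcl2l11, whose mRNA was 2.85-fold higher than in 2D cultures with palmitate. The other BH3-only genes that could be tested went the opposite way, with Bid 1.71-fold and Bbc3 1.61-fold lower, and the effector Bax was 1.71-fold lower. Among the guardians Mcl1, the most abundant, did not pass the test, and Bcl2 and Bcl2l1 passed with small changes, higher for Bcl2 and lower for Bcl2l1, of which that of Bcl2 turned to lower after correction for GC content and length, where neither passed. In the quasi-likelihood test of edgeR, at a Benjamini-Hochberg adjusted p under 0.05, 3 of the 9 tested genes were higher in 3D, 4 were lower and 2 did not pass. Over all genes tested 68.3% were called, 34.5% as higher and 33.9% as lower, so 7 calls among 9 genes is close to the background. The median log2 fold change of the 9 genes was -0.17, and that of all genes 0.01. For 7 of the 9 genes the 3 libraries of one condition lay wholly above those of the other, which held for 69.4% of all genes. The number of calls among the 9 genes fell to 4 without replicate 2 of the 3D cultures with palmitate.

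**Figure D1:**
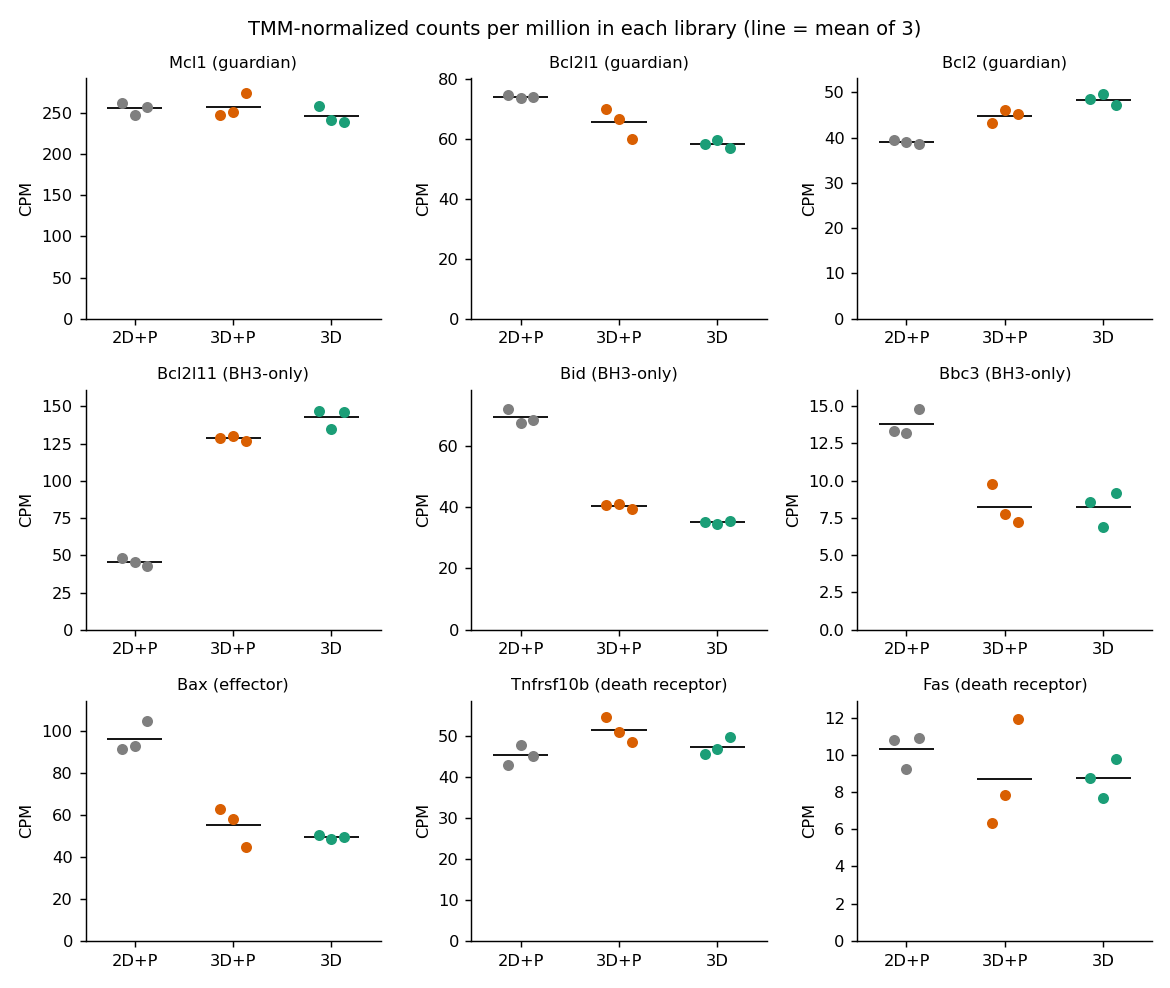
TMM-scaled CPM (vertical axis, linear and from 0) of the 9 tested genes in each of the 9 libraries, with a panel per gene; 2D+P is 2D with palmitate, 3D+P is 3D with palmitate and 3D is 3D without added palmitate, points are libraries and lines are means of 3. Bcl2l11 stood at 42.6 to 47.9 CPM in the 2D libraries and at 127 to 147 CPM in the 6 libraries of 3D cultures, while Bid and Bbc3 were highest in 2D.

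Bcl2l11 encodes BIM, a BH3-only protein that binds every guardian and also BAX directly. The gene lies on the plus strand of chromosome 2 at chr2:128126038-128162547 (GRCm38). Its level was 47.9, 45.6 and 42.6 CPM in replicates 1, 2 and 3 of the 2D cultures with palmitate, 129, 130 and 127 CPM in 3D with palmitate and 147, 135 and 146 CPM in 3D without. Every 3D library exceeded every 2D library by a wide margin. The level in 3D with palmitate was 129 ± 1.69 CPM (SD, n = 3) and in 2D 45.3 ± 2.65 CPM, a log2 fold change of 1.51 with a standard error of 0.0662. The adjusted p was 9.14e-11 in edgeR and the 95% confidence interval of the log2 fold change ran from 1.37 to 1.65. With 579 to 3513 counts per library, counting error added little. Counts per gene do not separate the extra-long, long and short splice forms of BIM.

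The 250 bases before a start site of Bcl2l11 and those before the start of Bax are shown, as the genes with the largest rise and one of the 2 largest falls. They were taken from RefSeq on GRCm38.p6 and are written 5′ to 3′ on the strand of the gene, with capitals for a match to the FOXO motif GTAAACA. The window of Bcl2l11 is chr2:128125788-128126037 on the plus strand and that of Bax is chr7:45466899-45467148 on the minus strand, and both end at the base before the transcript.
Bcl2l11: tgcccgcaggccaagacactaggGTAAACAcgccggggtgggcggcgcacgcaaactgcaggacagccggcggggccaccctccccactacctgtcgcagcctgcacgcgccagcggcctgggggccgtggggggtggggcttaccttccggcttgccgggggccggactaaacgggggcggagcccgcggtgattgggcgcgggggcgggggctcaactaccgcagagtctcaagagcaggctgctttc
Bax: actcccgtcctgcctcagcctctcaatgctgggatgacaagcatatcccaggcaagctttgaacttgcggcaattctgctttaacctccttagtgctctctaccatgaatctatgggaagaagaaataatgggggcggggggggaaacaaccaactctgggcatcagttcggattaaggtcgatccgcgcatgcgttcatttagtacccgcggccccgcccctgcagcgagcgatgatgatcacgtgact
The window shown for Bcl2l11 had a GC content of 72.0% and held 1 match, which began 227 bases before the start. The other of its 2 windows in the table, before a later start, held none. That of Bax had a GC content of 54.0% and held none. Neither window shown held the other motifs searched, namely TGANTCA for AP-1, TGATGNAAT for CHOP with ATF4, TTTCGCGC for E2F, GGG and TTCC with 3 bases between for NF-κB, and a pair of CATG with 6 bases between for p53. Searched on both strands, GTAAACA was present in 3.17% of 32851 windows of the same length in the RefSeq table used. It also occurred, on the other strand, in 1 of the 3 windows of Bbc3, whose mRNA went the other way. Of the other motifs, that of AP-1 was found in the window of Fas, that of NF-κB in that of Mcl1 and in 1 window each of Bcl2l1 and Bbc3, and that of E2F in 1 window of Bcl2l1. Over all windows these motifs occurred in 6.75%, 4.65% and 0.256%, that of CHOP with ATF4 in 0.816% and that of p53 in 0.49%. A match is a description of these letters and not a mapped binding site.

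Bid encodes the BH3-only protein that links death receptors to mitochondria, and lies on the minus strand at chr6:120891930-120916853. Its mRNA stood at 72.0, 67.5 and 68.4 CPM in the 2D cultures with palmitate, at 40.7, 40.9 and 39.4 CPM in 3D with palmitate and at 35.1, 34.6 and 35.3 CPM in 3D without. The 3 conditions did not overlap, and the spread within each was small. In 3D with palmitate the mean was 40.3 ± 0.856 CPM against 69.3 ± 2.38 CPM in 2D, which was lower by a log2 fold change of -0.78 with a standard error of 0.0618 and an adjusted p of 5.44e-08 in edgeR.

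Bbc3 encodes PUMA, a BH3-only protein best known as a target of p53, at chr7:16308393-16318205 on the plus strand. It was a gene of low level, with 13.3, 13.2 and 14.8 CPM in 2D with palmitate, 9.75, 7.75 and 7.20 CPM in 3D with palmitate and 8.55, 6.91 and 9.17 CPM in 3D without. All 2D libraries lay above all 3D libraries, and the 2 kinds of 3D culture overlapped. Its log2 fold change between 3D and 2D was -0.69 with a standard error of 0.131 and an adjusted p of 0.000293 in edgeR, and its counts ranged from 47 to 412. Pmaip1, which encodes the BH3-only protein NOXA, a partner of MCL1, was all but undetected. It had 1 count in each of 2 libraries of the 2D cultures and 0 in the other 7 libraries. A count of 0 allows up to 0.459 CPM in the smallest 3D library, taking 3 counts as the limit and counting error only, so no change could be measured at this depth.

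Bax encodes the effector that forms pores in the mitochondrial membrane once released, at chr7:45461697-45466898 on the minus strand. Its level was 91.6, 92.7 and 105 CPM in 2D with palmitate, 62.9, 58.0 and 44.7 CPM in 3D with palmitate and 50.3, 48.6 and 49.3 CPM in 3D without. The 2D libraries lay above all others, and replicate 3 of the 3D cultures with palmitate was the lowest of the 9. The mean in 3D with palmitate was 55.2 ± 9.42 CPM and in 2D 96.3 ± 7.28 CPM, with a log2 fold change of -0.78, a standard error of 0.0963 and an adjusted p of 5.29e-06 in edgeR. After correction of every library for GC content and transcript length the log2 fold change was -0.50, still called with an adjusted p of 1.52e-07. In the GENCODE M21 annotation 22.1% of the exonic bases of Bax are shared with Gm45808 on the same strand, which has no entry of its own in the count table.

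Mcl1 encodes a short-lived guardian and is at chr3:95658788-95663176 on the plus strand. Its level was 263, 248 and 257 CPM in 2D with palmitate, 248, 252 and 274 CPM in 3D with palmitate and 259, 242 and 239 CPM in 3D without. The 3 conditions overlapped throughout. The log2 fold change between 3D and 2D was 0.01 with a standard error of 0.0625, an adjusted p of 0.922 in edgeR and a 95% confidence interval of -0.13 to 0.14.

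Bcl2l1, the gene of BCL-XL, lies at chr2:152780668-152831728 on the minus strand. It stood at 74.7, 73.5 and 73.8 CPM in 2D with palmitate, at 69.8, 66.5 and 60.0 CPM in 3D with palmitate and at 58.4, 59.5 and 57.0 CPM in 3D without. The conditions followed each other in that order without overlap, and the 3D cultures with palmitate spread the most. The fall from 2D to 3D was small, with a log2 fold change of -0.17, a standard error of 0.0653 and an adjusted p of 0.0359 in edgeR. This call was kept in 11 of 20 alternative settings. After the correction for GC content and length the log2 fold change was -0.08 with an adjusted p of 0.145. It was lost when any single 2D library, replicate 3 of the 3D cultures without palmitate, or replicate 2 or 3 of the 3D cultures with palmitate was left out, with adjusted p from 0.0508 to 0.0936. The long antiapoptotic form and the short proapoptotic form of this gene share 1 count.

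Bcl2 itself, at chr1:106538178-106714274 on the minus strand, was the least abundant guardian for its length. Its level was 39.5, 39.0 and 38.6 CPM in 2D with palmitate, 43.3, 46.0 and 45.2 CPM in 3D with palmitate and 48.5, 49.5 and 47.1 CPM in 3D without, again without overlap. The order was the reverse of that of Bcl2l1. Between 3D and 2D the log2 fold change was 0.20 with a standard error of 0.0633 and an adjusted p of 0.0129 in edgeR. After the same correction for GC content and length it was -0.11 with an adjusted p of 0.138, so the direction of Bcl2 depends on that choice. Without replicate 2 of the 3D cultures with palmitate the adjusted p was 0.0613. An antisense gene, D630008O14Rik, covers 6.09% of the exonic bases of Bcl2, and whether reads were counted by strand is not given in the sources used here.

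The 2 death receptors showed small differences. Tnfrsf10b is the mouse receptor of the death ligand TRAIL, at chr14:69767472-69784411 on the plus strand. Its level was 43.0, 47.8 and 45.0 CPM in 2D with palmitate, 54.7, 50.9 and 48.5 CPM in 3D with palmitate and 45.6, 46.8 and 49.7 CPM in 3D without. The 3D libraries with palmitate lay just above those of the 2D cultures. The log2 fold change was 0.19 with a standard error of 0.0711 and an adjusted p of 0.0293 in edgeR, and this call was kept in 9 of 20 alternative settings. It was lost without replicate 1 or 2 of the 3D cultures with palmitate and without replicate 1 or 3 of the 2D cultures, with adjusted p from 0.0600 to 0.140.

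Fas, the receptor of FAS ligand, lies at chr19:34290666-34327772 on the plus strand and had 78 to 288 counts per library. It stood at 10.8, 9.23 and 10.9 CPM in 2D with palmitate, at 6.33, 7.82 and 11.9 CPM in 3D with palmitate and at 8.74, 7.69 and 9.76 CPM in 3D without. Replicate 3 of the 3D cultures with palmitate was the highest of the 9 libraries and replicate 1 of the same condition the lowest. The log2 fold change between 3D and 2D was -0.36 with a standard error of 0.176 and an adjusted p of 0.0806 in edgeR. Without replicate 3 of the 3D cultures with palmitate it was -0.56 with an adjusted p of 0.00153, and without replicate 1 of that condition it was -0.12 with 0.534.

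**Figure D2:**
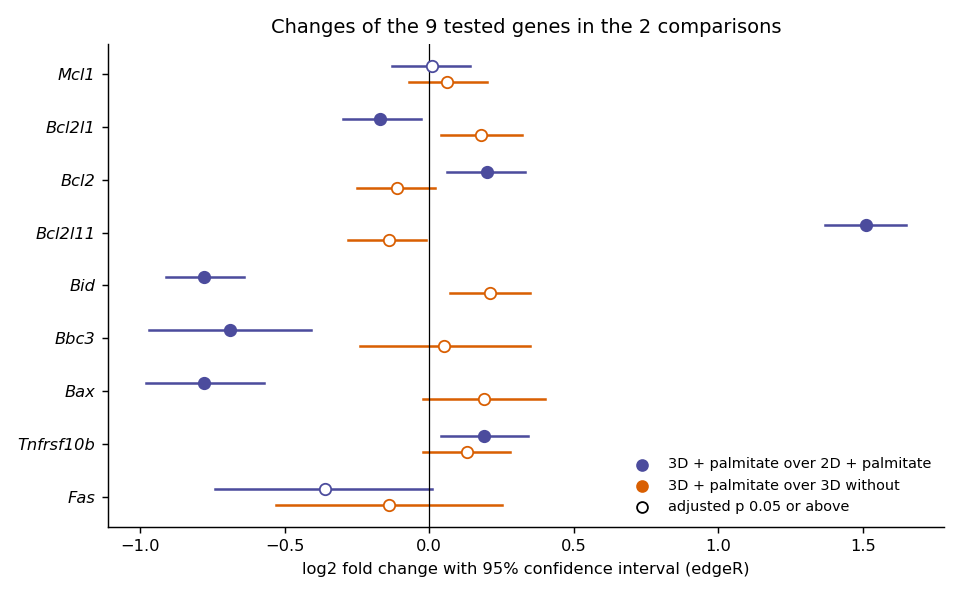
Log2 fold changes (horizontal axis) of the 9 tested genes with 95% confidence intervals from edgeR, for 3D over 2D cultures with palmitate and for 3D cultures with over without palmitate; filled points passed an adjusted p of 0.05. Bcl2l11 stands alone at 1.51 on the right and Bid, Bbc3 and Bax lie between -0.78 and -0.69 on the left, while every value of the palmitate comparison lies between -0.14 and 0.21.

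In 3D cultures, palmitate moved none of the 9 genes past the test. The log2 fold changes ran from -0.14 for Bcl2l11 and Fas to 0.21 for Bid, with a median of 0.06 beside 0.01 over all genes. At an adjusted p under 0.05 edgeR called 0 of the 9 genes, and DESeq2 called 0 as well. Over all genes tested 2.19% were called, 1.38% as higher. At an unadjusted p under 0.05 there were 3 of the 9 genes, namely Bid, Bcl2l1 and Bcl2l11. No share over all genes is at hand for that limit, so this count cannot be set against a background. The 2 comparisons share the 3D libraries with palmitate, so their values stand side by side and are not independent.

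Bid had a log2 fold change of 0.21 with palmitate, a standard error of 0.0640, an adjusted p of 0.109 in edgeR and a 95% confidence interval of 0.07 to 0.35. Bcl2l1 had 0.18, with a standard error of 0.0661 and an adjusted p of 0.181. Bcl2l11 had -0.14, with a standard error of 0.0630 and an adjusted p of 0.254. For these 3 genes and for Bcl2, whose log2 fold change was -0.11 with an adjusted p of 0.382, the libraries with and without palmitate did not overlap. Such separation, 4 of 9 genes, was seen for 18.6% of all genes. The intervals of the 4 genes reached no further than 0.35 in either direction.

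For the other 5 genes the libraries with and without palmitate overlapped. Bax had a log2 fold change of 0.19 with an interval of -0.02 to 0.40 and an adjusted p of 0.345 in edgeR. Tnfrsf10b had 0.13 with an interval of -0.02 to 0.28, and Mcl1 had 0.06 with an interval of -0.07 to 0.20. Bbc3 at 0.05 and Fas at -0.14 were the least well measured, with intervals of -0.24 to 0.35 and -0.53 to 0.25. Without replicate 3 of the 3D cultures with palmitate Fas was at -0.34, and without replicate 1 at 0.10, and Bbc3 was at 0.12 and -0.13 in turn, none past the test. Leaving out replicate 3 of the 3D cultures with palmitate, the smallest library, changed the result for 3 genes, in a setting where the calls over all genes went from 275 to 1901. Bax was then higher by 0.30 with an adjusted p of 0.0123, Bcl2l1 by 0.23 with 0.0185 and Bid by 0.22 with 0.0338 in edgeR. All 3 genes were lowest in that library among the 3D cultures with palmitate. Under all other settings tried, 0 of the 9 genes passed.

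To set genes against each other, counts were divided by the union of exon lengths and expressed as TPM, a share of all length-corrected counts of the library, with no test. On this scale Bax and Mcl1 were the most abundant of the 9 genes, at 192 ± 29.1 and 228 ± 17.2 TPM in 3D with palmitate and 301 ± 18.4 and 203 ± 4.61 TPM in 2D (SD, n = 3). Bax stood above Mcl1 in the 2D cultures, and in 3D cultures with palmitate the order of the means was the opposite, with both genes at 216 TPM in replicate 1. Bid, Bcl2l11, Bcl2l1 and Tnfrsf10b formed a middle range of 48.7 to 56.4 TPM in 3D with palmitate. Bcl2l11 and Bid overlapped, as did Bcl2l1 and Tnfrsf10b. In 2D the same genes were spread out, with Bid at 85.8 ± 2.93 TPM and Bcl2l11 at 17.8 ± 1.23 TPM. Bcl2l1, called slightly lower in 3D on the CPM scale, stood at 51.5 ± 0.937 TPM in 2D and 50.8 ± 2.84 TPM in 3D with palmitate, with overlapping libraries. Mcl1 overlapped on the CPM scale but not on this one. It stood at 208, 200 and 200 TPM in 2D and at 216, 220 and 248 TPM in 3D with palmitate. TPM sets every library to the same length-corrected total, so the TMM scaling drops out and all genes of a library shift together against CPM. The differences between the scales for Bcl2l1 and Mcl1 follow from that common shift and are not further results on these genes. Bcl2, Fas and Bbc3 were the lowest in 3D with palmitate, at 14.8 ± 0.633, 14.7 ± 5.24 and 13.7 ± 2.02 TPM, and did not differ beyond their spread.

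Within the guardians, Mcl1 made up 76.3%, 77.6% and 78.0% of the summed per-length level in 2D with palmitate, 3D with palmitate and 3D without. Bcl2l1 made up 19.4%, 17.4% and 16.2%, and Bcl2 4.34%, 5.04% and 5.72%. The mix of guardian transcripts therefore differed by a few percentage points at most. Set against the sum of the guardians, Bcl2l11 stood at a ratio of 0.0690, 0.0690 and 0.0627 in the 2D libraries, 0.197, 0.198 and 0.184 in 3D with palmitate and 0.223, 0.214 and 0.236 in 3D without. The conditions did not overlap, and the 3D ratios were well above those in 2D.

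The ratio of Bcl2l11 to Bid was 0.211, 0.214 and 0.198 in 2D, 1.01, 1.01 and 1.03 in 3D with palmitate and 1.33, 1.24 and 1.31 in 3D without. Bid thus exceeded Bcl2l11 in each 2D library, and Bcl2l11 exceeded Bid in each library of 3D without palmitate. In 3D with palmitate the 2 genes were nearly level, so their order there depends on the exon lengths used. The ratio of Bcl2l11 to Bbc3 had means of 0.870 ± 0.101, 4.19 ± 0.616 and 4.61 ± 0.479 in the same order. Bax over Bcl2 stood at 24.5, 25.1 and 28.6 in 2D, 15.4, 13.3 and 10.5 in 3D with palmitate and 11.0, 10.4 and 11.0 in 3D without, and the 2D libraries lay above all others. These ratios were not corrected for GC content. The correction for GC content and length moved the log2 fold change of Bax from -0.78 to -0.50 and that of Bcl2 from 0.20 to -0.11. The changes of the 2 genes were then closer to each other. With 3 libraries against 3, an exact 2-sided permutation test of a single ratio cannot go below 0.1, so none was run.

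**Figure D3:**
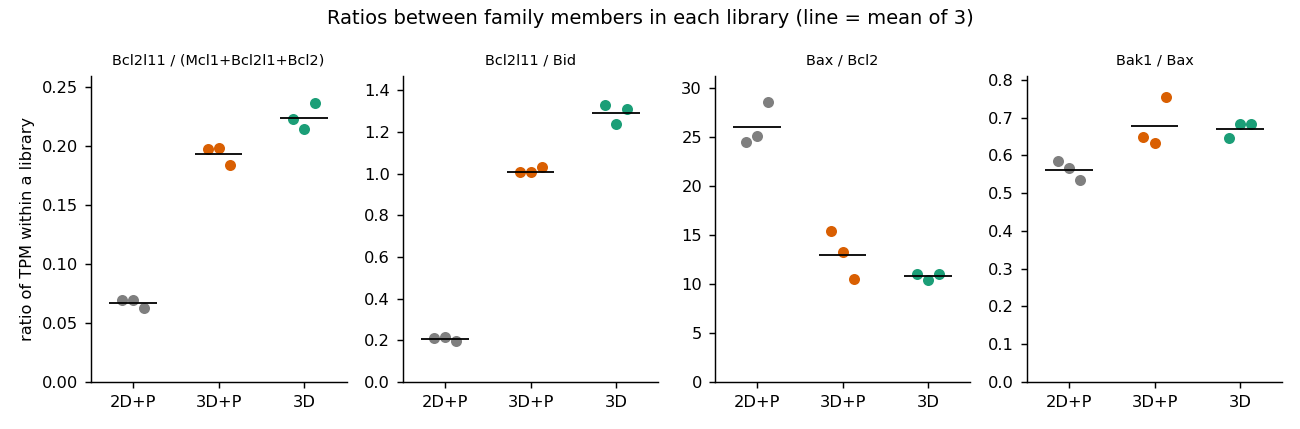
Ratios of per-length levels (TPM, vertical axis, linear and from 0) between pairs or groups of genes in each library; points are libraries, lines are means of 3 and conditions are labelled as in the plot of CPM. The mean of Bcl2l11 over Bid was 0.208 in 2D and 1.01 and 1.29 in the 3D conditions, and Bax over Bcl2 lay between 24.5 and 28.6 in 2D and between 10.4 and 15.4 in 3D. The ratios were not corrected for GC content.

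Around the 10 genes, 92 other genes of the same pathways were listed in 8 groups, of which 78 had enough counts to be tested. Between 3D and 2D cultures with palmitate 29 were higher, 24 were lower and 25 did not pass, with 68.3% called over all genes tested. Of the relatives of Bcl2l11, Bid and Bax, 4 of 11 were higher and 4 lower. Bcl2l14, 1 of the 4 higher, stood at 0.246 CPM in 2D and passed the filter through its 3D level, and without it 3 of 10 were higher. The second effector, Bak1, fell with Bax, by a log2 fold change of -0.53 with a standard error of 0.0705 and an adjusted p of 1.02e-05 in edgeR. Their relative Bok went the other way, at 0.76 with an adjusted p of 0.000107 in edgeR. Bnip3 and Bcl2l13, both mitophagy receptors, were lower by -0.85 and -0.45. The ratio of Bak1 to Bax was 0.562 ± 0.0251 in 2D and 0.679 ± 0.0655 in 3D with palmitate. Bcl2l2, the gene of BCL-W and the 1 tested of 5 listed relatives of the guardians, was higher at 0.38. The 3 Bcl2a1 genes, near-identical copies that counting can lose, had 0 counts in every library.

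Among the partners of Tnfrsf10b and Fas, 6 of 9 tested ligands and receptors were higher in 3D and 0 were lower, where 34.5% of all genes were higher. Tnfsf10, the gene of TRAIL, and Ngfr were among the 6 but stood at or under 0.555 CPM on average in 2D, so they entered the test through their level in 3D and could hardly be called lower. Among the 5 genes at 1 CPM or more in both conditions, a limit set after the data were seen, 4 were higher and 0 lower, and the median log2 fold change was 0.97. The 3 with the smallest p were Tnfrsf23 at 1.73, a decoy receptor of TRAIL with close paralogs, the TNF receptor Tnfrsf1b at 1.35 and the death receptor Tnfrsf1a at 0.97. The ligand gene Fasl was near 0 and was not tested. Of 9 receptor adaptors and switches, 3 were higher and 3 lower, among them Cflar, the inhibitor of caspase-8, at 0.70, Faim, which protects from FAS, at -0.69, and the necroptosis effector Mlkl at -0.38.

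Downstream of Bax, 3 of 12 caspase and apoptosome genes were higher and 3 lower, where 34.5% of all genes tested were higher and 33.9% lower. Cycs, the gene of cytochrome c with many processed copies in the genome, had -1.04 and Aifm1, a mitochondrial flavoprotein, -0.74. Of 7 inhibitors of apoptosis and their antagonists 2 were higher and 3 lower. Xiap, which blocks caspases, was at 0.86, its mitochondrial antagonist Htra2 at -1.22 and Birc5, which also serves in mitosis, at -0.46. All of these passed the test in edgeR, with adjusted p of 5.02e-06 or lower.

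Upstream, Bbc3, Bax, Fas, Tnfrsf10b and Pmaip1 are known targets of p53, and 16 tested genes of p53 and its other targets split into 4 higher, 6 lower and 6 that did not pass. The shares over all genes tested were 34.5% higher and 33.9% lower. Cdkn1a, the cell-cycle inhibitor p21, rose by 2.20 and Trp53inp1 by 2.13, and the kinase gene Plk2 had -1.77. Whether p53 is active in these cells was not tested, so these genes are not a readout of p53. Of 13 other transcription factors and cofactors known to act on these genes, 6 were higher and 5 lower, or 5 and 5 of 12 without Trp63, which stood at 0.102 CPM in 2D, led by Myc at -1.47, Atf4 of the integrated stress response at -1.15 and Stat3 at 0.99. The FOXO genes, named here after their values were seen because FOXO factors are known activators of Bcl2l11, were at 0.38 for Foxo1, 0.77 for Foxo3 and -0.52 for Foxo4, each past the test. Of the same list Ddit3, the gene of CHOP, was at -0.85 and past the test, and E2f1 at 0.03 was not. Whether any of these factors acts on Bcl2l11 in these cultures was not tested.

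With palmitate in 3D cultures, 3 of the 78 listed genes were higher and 0 lower, beside 2.19% of all genes called. They were Tnfrsf21, a death domain receptor also called DR6, at a log2 fold change of 0.41 with an adjusted p of 0.0132, Plk2 at 0.38 with 0.0110, and the stress gene Sesn2 at 0.65 with 0.0126 in edgeR. An unadjusted p under 0.05 was seen for 17, again with no share over all genes beside it. The counts that follow are of genes called at an adjusted p under 0.05. The count was 19 without replicate 3 of the 3D cultures with palmitate, where calls over all genes went from 275 to 1901, and it was 1 without replicate 1 or 2 of that condition and 0 without replicate 2 or 3 of the 3D cultures without palmitate. It was also 0 when just the 2 conditions were fitted and when the level of the ribosomal transcript Rn45s in each library was a covariate, and 13 after the GC and length correction, which brought 986 calls over all genes.

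**Figure D4:**
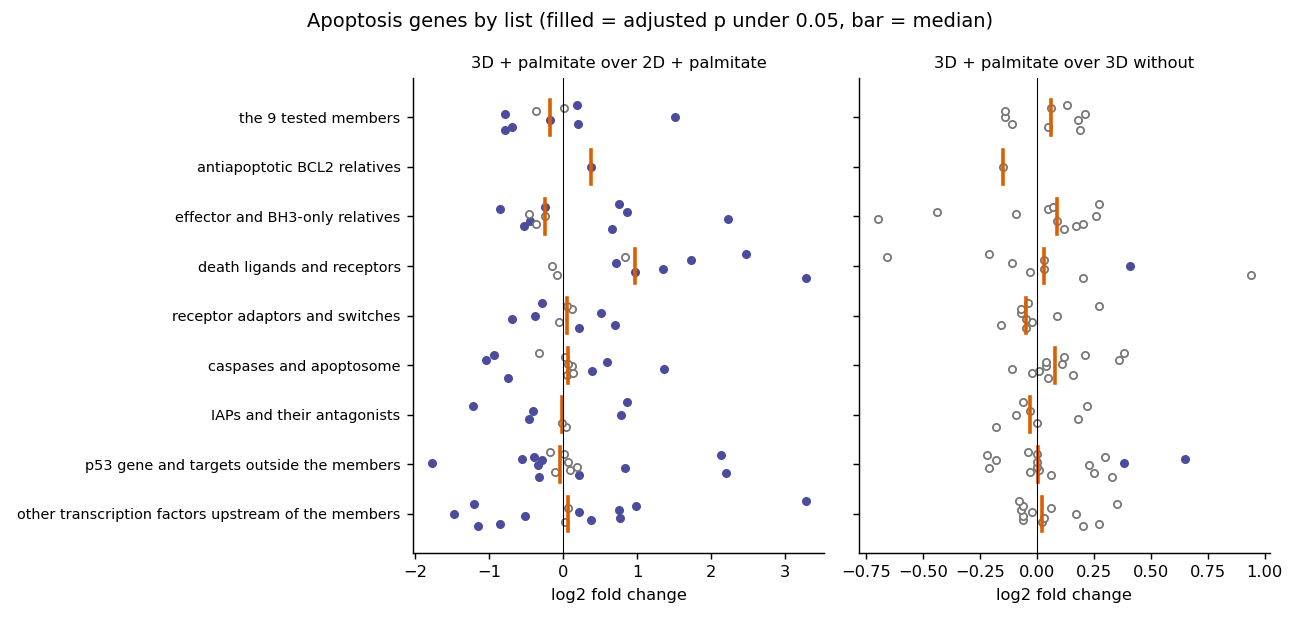
Log2 fold changes (horizontal axes, different ranges) of the 9 tested genes and of the 8 groups of other apoptosis genes in both comparisons; each point is a gene, filled where the adjusted p in edgeR was under 0.05, and bars are medians. In the 3D over 2D panel most groups hold genes on both sides, with medians from -0.24 to 0.97, and in the palmitate panel 3 points are filled.

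The calls for Bcl2l11, Bid, Bbc3 and Bax in the comparison of 3D with 2D cultures held in all 20 alternative settings, which changed the scaling, the filter, the model, the tool, the depth or the libraries used. The log2 fold change of Bcl2l11 ranged from 1.33 to 1.54, that of Bid from -0.80 to -0.68, that of Bbc3 from -0.87 to -0.56 and that of Bax from -0.88 to -0.50. Mcl1 ranged from -0.04 to 0.03 and never passed. The calls of Bcl2, Bcl2l1 and Tnfrsf10b were lost in part of the settings, and Fas passed in 2 of the 20.

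**Figure D5:**
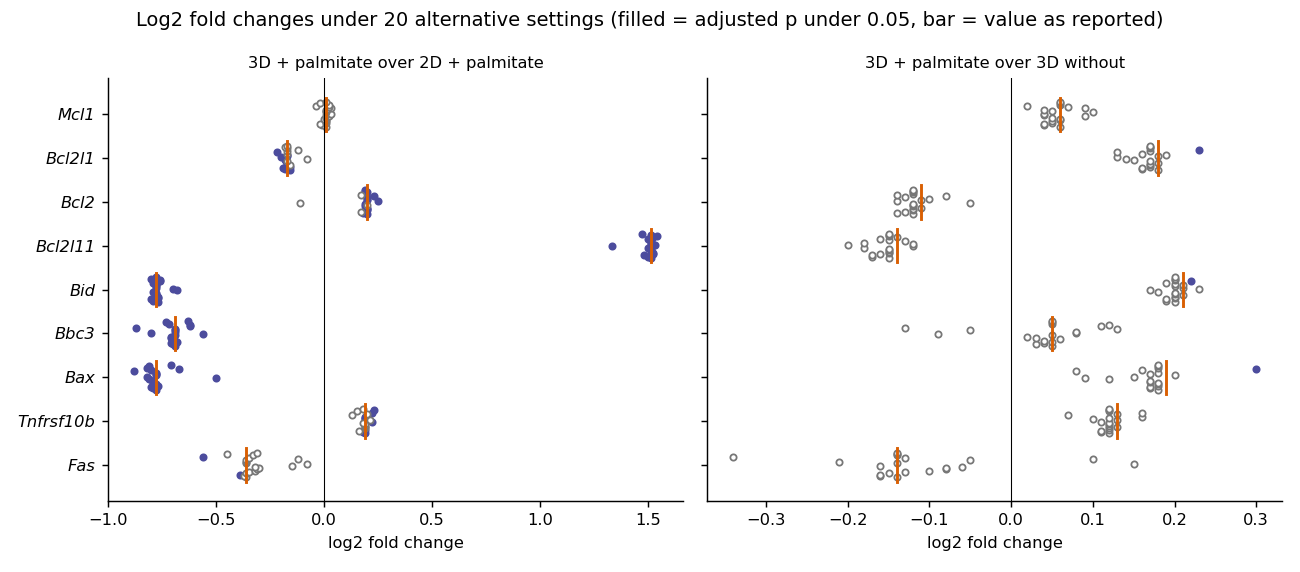
Log2 fold changes (horizontal axes, different ranges) of the 9 tested genes under 20 alternative settings for both comparisons; each point is a setting, filled where the adjusted p was under 0.05, and bars mark the reported value. Bcl2l11, Bid, Bbc3 and Bax are filled throughout in the 3D over 2D panel, and in the palmitate panel 3 points are filled, at 0.22 for Bid, 0.23 for Bcl2l1 and 0.30 for Bax.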

How the data were processed

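Counts of reads per gene of 9 RNA-seq libraries of 4T1 cells were analysed. The authors prepared libraries with a stranded mRNA kit, trimmed 50-base single reads, inspected them with FastQC (0.11.9), aligned them to GRCm38 with HISAT2 (2.1.0) and counted them with HTSeq, and they deposited raw counts without normalization. The annotation and strand setting of the counting are not given in the sources used here. Reads of overlapping genes or near-identical copies may be lost or shared.

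Samples were grouped by their labels, which number replicates but do not say that they were separate cultures, so p-values measure the spread between these libraries. No libraries of a condition agreed within sampling noise (chi-square per gene 3.89 to 19.7). The chi-square was 3.89 to 9.30 in 2D with palmitate, 4.84 to 7.37 in 3D without and 16.4 to 19.7 in 3D with palmitate. The last condition is in both comparisons. The fit shared 1 estimate of the spread over the 3 conditions, so standard errors and intervals average over this unequal spread.

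In R 4.3.3 with edgeR 4.0.16, genes were filtered with filterByExpr, scaled by TMM and fitted by quasi-likelihood on all 9 libraries with condition as the sole term. Calls used a Benjamini-Hochberg adjusted p under 0.05 over all 12575 genes. Alternatives included DESeq2 1.42.0. The procedure was tested on simulated data. Lengths came from GENCODE M21. All 10 genes are described in every library, and of each of the 8 other groups the 3 called genes with the smallest p are named, apart from 1 gene that is not reported here. The genes and groups were chosen with earlier results of these data known.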

Additional observations from a re-analysis of the deposited data

How the results depend on the processing

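In the comparison of 3D with 2D cultures with palmitate, 7 of the 9 genes were called. The count was 4 with DESeq2 on the 2 conditions alone and 4 when an absolute log2 fold change of at least 0.5 was also required, and it ranged from 4 to 7 when each library was left out in turn. The log2 fold change of Bcl2 reversed to -0.11 with the GC and length trend removed. Of 180 member values under alternatives, 154 kept their call or stayed uncalled, 23 lost the call, 2 gained it and 1, that of Bcl2, reversed. Values that stayed uncalled could change sign, as Mcl1 did between -0.04 and 0.03. The count of other apoptosis genes was 53, with 51 to 57 when libraries were left out and 49 among genes at 1 CPM or more in both conditions, a limit added after seeing the data. It was 61 with the GC and length trend removed and 37 when an absolute log2 fold change of at least 0.5 was also required.

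In the palmitate comparison 0 of the 9 genes were called, with 0 to 3 when libraries were left out, and 177 of 180 member values kept direction or stayed uncalled. The count of other apoptosis genes was 3. It was 7 with no filter on low counts, 0 with the 2 conditions alone, 0 with the Rn45s share as a covariate, 13 with the GC and length trend removed and 1 with a log2 fold change of at least 0.5, and ranged from 0 to 19 when libraries were left out.

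With the replicate number as a block the calls were 6 of 9 genes between 3D and 2D, with Tnfrsf10b lost at an adjusted p of 0.0547, and 0 of 9 with palmitate. Over all genes the calls with palmitate were 111 with the block and 275 without it. No sign of pairing by number was seen. Deviations of same-numbered libraries correlated at -0.24 to 0.15 and those of others at -0.17 to 0.28. Not every library correlated best with its own number. With 3 libraries in each condition these overlapping ranges cannot exclude pairing. Depth limits Pmaip1, and few counts widen the intervals of Bbc3 and Fas. The cause of each change was not tested.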
